A study of Sus scrofa with 5 samples.

Results

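The well-expressed long noncoding RNAs (lncRNAs) of pig ovarian follicles were the gene entries annotated with the biotype lncRNA whose mean over the 5 libraries was 5 FPKM or more. FPKM is a fragment count relative to the length of the gene and to the depth of the library. The rule kept 109 of the 5600 lncRNA entries among 30822 genes, and 4196 lncRNA entries had any fragment. The study profiled RNA from follicles of female Indian Ghoongroo pigs and compared 3 libraries labelled large follicle with 2 labelled small follicle. All animals are of this breed, and the sources used here give no other treatment, age or follicle diameter. They also do not say whether biological replicates are separate animals, so the p-values speak only of the spread among these 5 libraries.

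Long noncoding RNAs are transcripts that are not read into a protein. Many start beside or across a protein-coding gene, in the opposite direction, and some carry small nucleolar RNAs (snoRNAs), which guide the chemical modification of ribosomal RNA, inside their introns. In the follicle, granulosa cells line the cavity around the oocyte and theca cells form the outer, androgen-making wall with its blood vessels.

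The label was checked against the annotation. In the RefSeq gene table of the same assembly, Sscrofa11.1, all 109 entries had the biotype lncRNA and 0 had a protein accession, while 56 had 1 transcript model and 2 had a curated model. The descriptions did not all fit the label. They named 66 entries only as uncharacterized loci and gave the other 43 a protein description, among them gelsolin (GSN) and the translation factor EIF4B. Of these 43, 40 carried the symbol of a protein-coding gene. The 2 kinds of entry are therefore described separately below. No sequence of these transcripts was used here.

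Entries near the threshold differed little in level. The lowest inside it were LOC106507059 with a mean of 5.02 FPKM, LOC100738154 with 5.02 and LOC100513188 with 5.07, and the highest outside it were LOC106505566 with 4.71, LOC100626258 with 4.70 and LOC102164147 with 4.63. Of the 109 entries, 97 had a mean of 5 FPKM or more in both follicle groups, 11 only in the large and 1 only in the small group. An entry of the last 2 kinds passed the rule through the group in which it was high.

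Library totals ranged from 9523739 to 11507527 fragments, and the lncRNA entries took 0.601% to 0.858% of them. The lowest shares were in large follicle replicate 2 and small follicle replicate 1. The same 2 libraries had the largest shares of mitochondrial fragments, 6.34% and 8.53% against 3.09% to 4.22% in the other 3, and of fragments in their 10 top genes, 13.3% and 14.2% against 8.03% to 8.76%. A median entry held 286 fragments in a library. Of the marker lists, the summed level of theca genes ran from 2004 to 4216 FPKM in large and from 884 to 1178 in small follicles, that of myeloid genes from 224 to 328 and from 114 to 131, and that of red cell genes from 1006 to 1680 and from 234 to 703. Endothelial markers summed to 315 to 351 FPKM in large and 258 to 263 in small follicles, smooth muscle markers to 3692 to 4488 and 3095 to 3110, and lymphocyte markers to 7.87 to 13.2 and 6.24 to 7.78. Sums follow the most abundant genes. Of 8 theca markers 5 were higher and 3 lower in large follicles. Granulosa markers summed to 6825 to 15950 FPKM in large and 5126 to 7769 in small follicles, yet 7 of the 11 were lower in large follicles, with a median log2 difference of −0.53, and the 1 that passed, INHBB, fell. No marker of any list was at 0 in all 5 libraries.

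Of the 109 entries, 2 passed the test between follicle sizes, and both rose in large follicles. They were the uncharacterized loci LOC102164588 and LOC100514834. Passing means a Benjamini-Hochberg adjusted p under 0.05 in limma's moderated test on log2(FPKM + 1) over 13087 genes, which 0.978% of all genes did (0.535% upward and 0.443% downward). Both belong to the 11 entries that reached the threshold through the large group only, and 0 of the 97 entries above it in both groups passed with limma, where 9 of them had an unadjusted p under 0.05, or with voom on fragments recovered from the FPKM values.

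**Figure D1:**
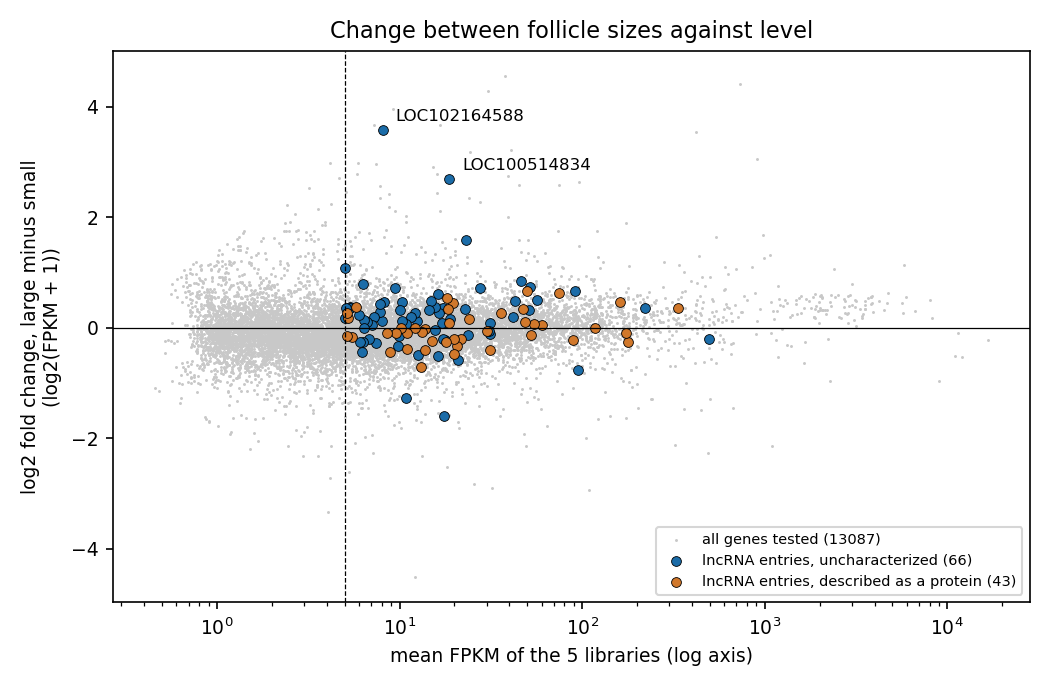
Log2 fold change of log2(FPKM + 1), large minus small, against the mean FPKM of the 5 libraries on a log axis, for all 13087 genes tested (grey), the 66 uncharacterized lncRNA entries (blue) and the 43 described as a protein (orange); the dashed line marks 5 FPKM. LOC102164588 and LOC100514834 lie above the rest, and most other entries lie close to 0.

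LOC102164588 was nearly absent from small follicles. The locus lies on chromosome 2 from 136931805 to 136957532 on the minus strand. Its level was 14.6, 15.5 and 10.2 FPKM in large follicle replicates 1 to 3, and 0 and 0.395 FPKM in small follicle replicates 1 and 2. All 3 large libraries were far above both small ones. These levels rest on 85, 78 and 54 fragments in the large libraries and on 0 and 2 in the small ones. With 2 fragments in all in small follicles, the ratio of fragment rates is loosely fixed: it was 66.4, with a 95% counting interval of 18.2 to 552. The ratio of mean FPKM, 68.1, was 34.05 without small follicle replicate 1 and has no value without small follicle replicate 2. The floor of 3 fragments was 0.624 and 0.592 FPKM in small follicle replicates 1 and 2, above the level seen in either. The difference in log2(FPKM + 1), a scale that compresses low values, was 3.59 (SE 0.31, limma adjusted p = 0.000863). It ran from 1.82 with a pseudocount of 5 to 5.91 with a pseudocount of 0.1.

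The tested genes around LOC102164588 changed less, and in both directions. LOC102164588 overlaps SEC24A, a coat protein of vesicles that leave the endoplasmic reticulum, on the opposite strand. SEC24A had 2.04, 3.33 and 5.11 FPKM in large and 3.76 and 6.37 FPKM in small follicles, a log2 difference of −0.46 (limma adjusted p = 0.769). CAMLG, a membrane protein that helps tail-anchored proteins into the endoplasmic reticulum, starts 94 bases away in the other direction and differed by −0.35 (limma adjusted p = 0.730). The sources used here do not say whether fragments were counted by strand. The values of SEC24A overlapped between the groups and ran in the other direction. Of 10 other genes tested within 400000 bases, 0 passed in limma. Their log2 differences ran from −0.69 for C2H5orf24 to 0.42 for PCBD2. PCBD2, at 125388 bases, was higher in every large library than in both small ones (limma adjusted p = 0.628).

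LOC100514834 was the more abundant of the pair. It lies on chromosome 4 from 75294209 to 75296319 on the minus strand. Its level was 35.4, 27.9 and 23.4 FPKM in large follicle replicates 1 to 3 (28.9 ± 6.07, SD, n = 3) and 3.06 and 4.08 FPKM in the small replicates (3.57 ± 0.728, SD, n = 2). The groups did not overlap, and the lowest large library was far above the highest small one. Its 704 fragments in large and 53 in small follicles gave a rate ratio of 8.13 (95% counting interval 6.15 to 10.96). The log2 difference was 2.70 (SE 0.26, limma adjusted p = 0.00172). In these bulk samples fewer cells of a type and less RNA per cell cannot be told apart, and the summed theca, myeloid, red cell, endothelial, smooth muscle and lymphocyte markers were also higher in every large library; their part in the values of these 2 loci was not tested.

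The nearest protein-coding gene to LOC100514834 was IMPAD1, which encodes a Golgi phosphatase, at 83221 bases. IMPAD1 had 13.9, 11.5 and 15.6 FPKM in large and 12.7 and 20.1 FPKM in small follicles (log2 difference −0.22, limma adjusted p = 0.869), and its groups overlapped. On the other side, at 229178 bases, lies PENK, the precursor of the enkephalin peptides, named here after its values were seen. PENK had 35.0, 35.6 and 45.0 FPKM in large and 3.09 and 3.56 FPKM in small follicles, a log2 difference of 3.18 (limma adjusted p = 0.000551). PENK was the 1 gene that passed among 4 tested within 400000 bases of LOC100514834.

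**Figure D2:**
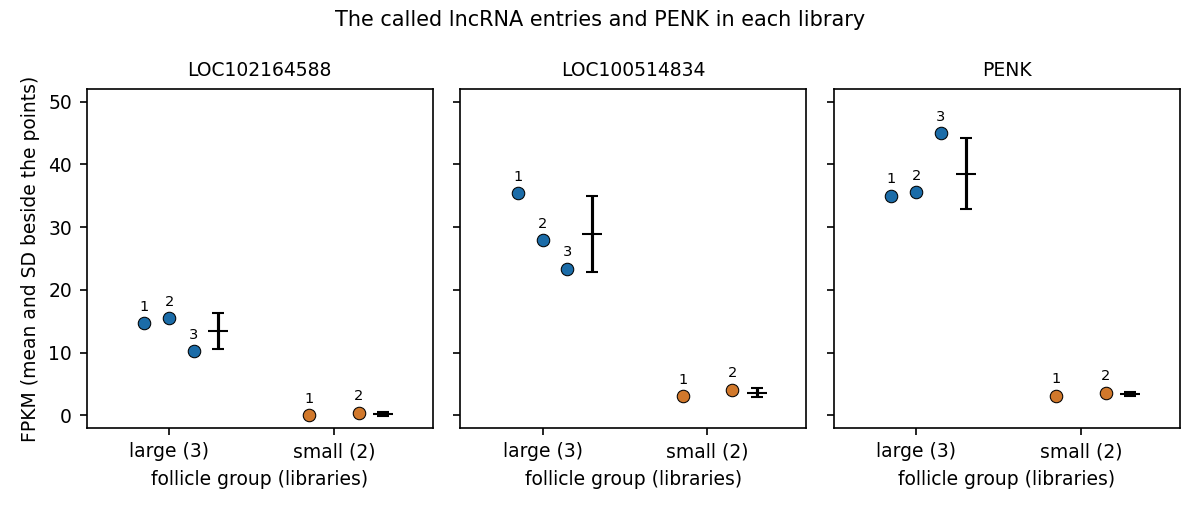
FPKM of LOC102164588, LOC100514834 and PENK in each library, with large follicles in blue, small follicles in orange, replicate numbers above the points, and the mean and SD beside them. In all 3 panels the 3 large libraries lie above the 2 small ones, with small follicle levels of at most 4.08 FPKM.

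**Figure D3:**
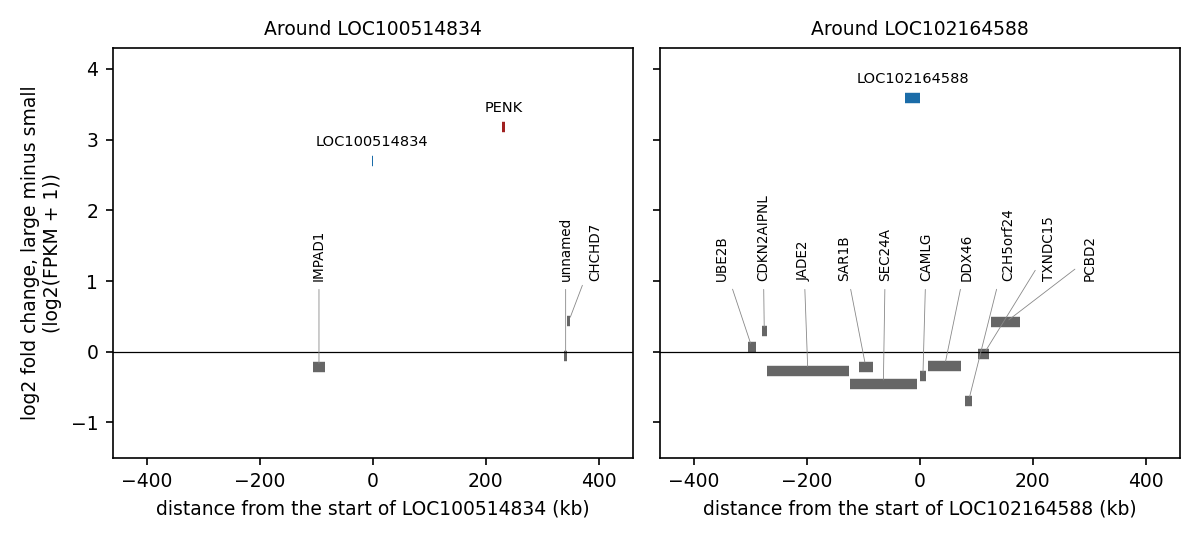
Log2 fold change, large minus small, of every tested gene within 400000 bases of LOC100514834 (left) and LOC102164588 (right), placed by distance from the start of that locus in kilobases; bars span each gene, the lncRNA is blue, a gene that passed the test is red and others are grey. PENK is the red bar at 3.18, and the 10 genes around LOC102164588 lie between −0.69 and 0.42.

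Both loci had closely similar profiles over the 5 libraries. Among 7916 genes with a mean of 5 FPKM or more, Pearson's r between LOC102164588 and LOC100514834 was 0.996, the third highest value for each. Those above or beside it for LOC100514834 were TSPAN31 (0.997), FBLN1 (0.996), FAM178B (0.995) and NT5C3B (0.995). For LOC102164588 they were an unnamed locus (0.998), NT5C3B (0.996), ERCC1 (0.995) and the water channel gene AQP1 (0.995). Of these genes, FAM178B and AQP1 passed the test (limma adjusted p = 0.00595 and 0.0316). AQP1 is on the endothelial marker list. Of the 7 markers on that list 5 were higher and 2 lower in large follicles, and AQP1 alone passed. PENK ranked 44 for LOC100514834 with r = 0.977 and 31 for LOC102164588 with r = 0.981. With 5 libraries that share one split into groups, these values describe likeness only.

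The uncharacterized entries leaned towards large follicles. Of the 66, 46 had the higher value in large follicles and 20 in small ones, with a median log2 difference of 0.19, where the median of all genes tested was −0.08 and 39.9% of genes were higher. Of the 332 lncRNA entries tested below a mean of 5 FPKM, 51.8% were higher, with a median of 0.02. In limma 10 of the 66 had an unadjusted p under 0.05, which 10.4% of all genes did. Of the 66, 58 had a mean of 5 FPKM or more in both groups, and 38 of these 58 were higher, with a median of 0.14. Leaving out a library also moved the values of all genes. Without small follicle replicate 1 the count was 31 of 66, or 47.0%, with a median of −0.02, beside 27.6% of all genes and a median of −0.25. Without large follicle replicate 1 it was 35 of 66, or 53.0%, with a median of 0.02, beside 35.4% of all genes and −0.11. Median-of-ratios scaling and quantile normalization gave 48 and 47 of 66, or 72.7% and 71.2%, beside 49.1% and 48.2% of all genes.

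The 43 entries described as proteins did not show the same lean. Among them 17 were higher and 26 lower, with a median log2 difference of −0.06, which turned to 0.03 with median-of-ratios scaling and 0.01 with quantile normalization. The median of all genes was −0.01 in both settings. In limma 0 of 43 passed and 2 had an unadjusted p under 0.05, and voom on recovered fragments also called 0. The difference between the 2 kinds of entry was not tested.

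Over all 109 entries, 63 were higher in large follicles and the median log2 difference was 0.11. For the 97 entries above the threshold in both groups, 52 were higher and the median was 0.06. With all 109, the median was −0.10 without small follicle replicate 1 and −0.04 without large follicle replicate 1, where those of all genes were −0.25 and −0.11. In either case 46 of 109, or 42.2%, were then higher, beside 27.6% and 35.4% of all genes. The difference between groups was smaller than the SD between replicates for 65 entries, or 59.6%, against 57.7% of all genes. The values of the groups did not overlap for 21 entries, or 19.3%, with 14 higher and 7 lower. Of all genes 26.1% had no overlap, 10.9% higher and 15.2% lower. Among the higher entries, LOC102164588, LOC100514834, LOC100738154, LOC106507059 and EPB41L4A reached the threshold through the large group only, so the rule favoured their direction.

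Large follicle replicate 1 held the highest level for 57 of the 109 entries, or 52.3%, and for 19.6% of all genes tested. After median-of-ratios scaling these shares were 51.4% and 19.8%. Among the 332 lncRNA entries tested below a mean of 5 FPKM the share was 33.7%, and 36.7% after scaling. Among uncharacterized entries of the 109, large follicle replicate 1 was highest for 39 of 66. Large follicle replicate 2 and small follicle replicate 1 were the lowest pair for 53 entries, or 48.6%, against 36.9% of all genes, and after scaling for 22 entries, or 20.2%, against 16.3%. Median levels of the entries were 18.9, 12.0 and 15.3 FPKM in large follicle replicates 1 to 3 and 12.9 and 16.4 FPKM in small follicle replicates 1 and 2. Large follicle replicate 1 had the largest total and the other pair the largest mitochondrial shares; the part of depth and of these shares in the order was not tested.

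**Figure D4:**
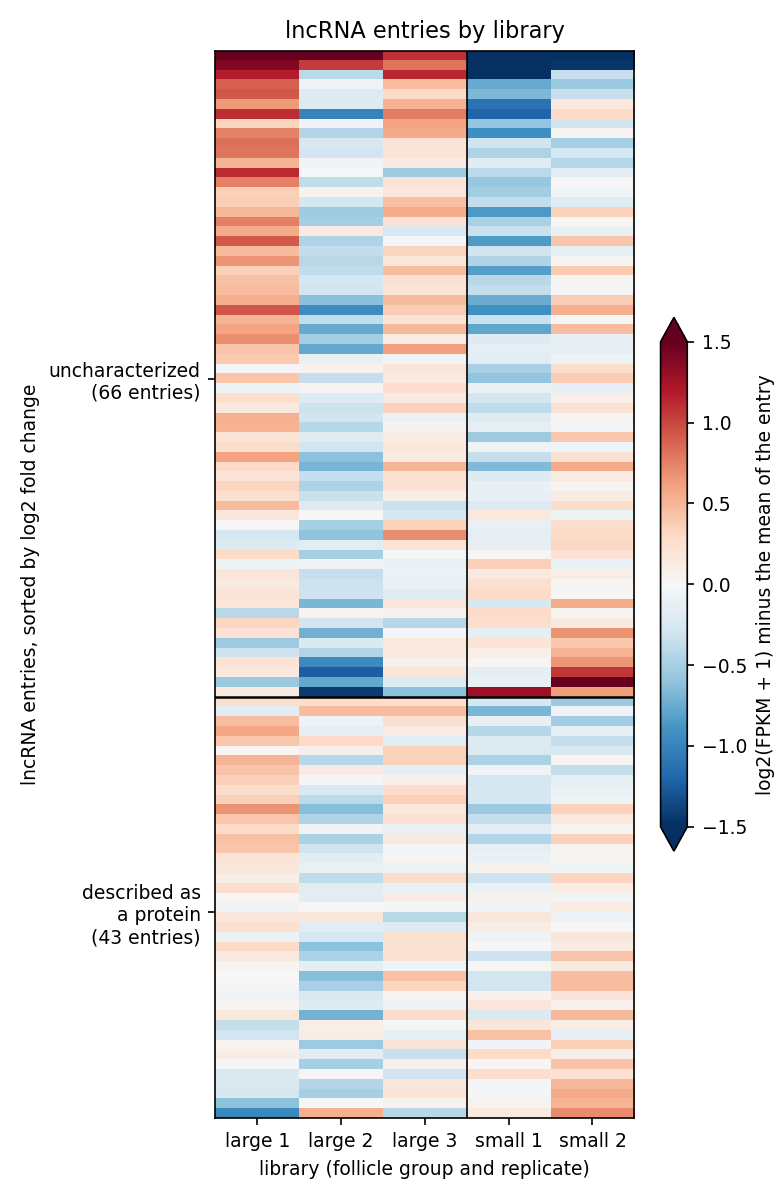
Log2(FPKM + 1) of each lncRNA entry in each library minus its mean over the 5 libraries (colour), with the 66 uncharacterized entries above the line and the 43 described as a protein below it, each sorted by log2 fold change. Large follicle replicate 1 is red in most of the upper block, and large follicle replicate 2 and small follicle replicate 1 are blue across much of it.

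Several uncharacterized entries lie beside genes whose human counterparts flank known lncRNAs. They were grouped this way after their values were seen, and whether a pig entry is the counterpart of the human lncRNA was not tested. Of a list of 51 symbols of known lncRNAs and their relatives, 2 matched a gene in the files, the imprinted MEG3, with a mean of 0.276 FPKM, and CWF19L1, which is annotated as protein-coding. None of the 109 entries was on that list.

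Those beside flanking genes of human snoRNA host transcripts numbered 9. Of them 8 were higher in large follicles, with a median log2 difference of 0.32, beside 39.9% of all genes and a median of −0.08. In limma 0 passed and 4 had an unadjusted p under 0.05, which 10.4% of all genes did, and voom called 0. All 9 were highest in large follicle replicate 1, or 8 of 9 after scaling. Without small follicle replicate 1 the count was 4 of 9 with a median of −0.19, beside 27.6% of all genes and a median of −0.25.

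LOC100525590 starts 246 bases from GLRX5, a mitochondrial iron-sulfur protein, in the other direction; in human the snoRNA host SNHG10 lies there. It had 41.9, 13.3 and 40.6 FPKM in large and 5.42 and 14.0 FPKM in small follicles. Large follicle replicate 2 was below small follicle replicate 2, so the groups overlapped. The log2 difference was 1.58 (SE 0.50, limma adjusted p = 0.257). It was 2.11 when large follicle replicate 2 was left out (limma adjusted p = 0.00169), a setting in which 284 of all genes passed against 128 in the main test. LOC100525590 did not pass without large follicle replicate 1 or 3. GLRX5 itself differed by 0.36 (limma adjusted p = 0.626).

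LOC100512700 overlaps FAM69B, which encodes a membrane protein of the endoplasmic reticulum, on the opposite strand, near human SNHG7. Its levels were 82.5, 37.2 and 52.8 FPKM in large and 26.5 and 33.4 FPKM in small follicles. All large libraries were above both small ones, large follicle replicate 2 by little. The log2 difference was 0.85 (limma adjusted p = 0.348), and it passed with large follicle replicate 2 left out, at 1.12 (limma adjusted p = 0.0321). It did not pass without large follicle replicate 1 or 3. FAM69B differed by 0.15 (limma adjusted p = 0.884).

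LOC100627868 starts 119 bases from ZNFX1, an RNA-binding antiviral protein gene, across from it as human ZFAS1 does. It had 153.8, 73.5 and 99.98 FPKM in large and 70.4 and 61.2 FPKM in small follicles (log2 difference 0.66, limma adjusted p = 0.474). The groups did not overlap, although large follicle replicate 2 was close to small follicle replicate 1. LOC100525935, beside PRSS12 where human SNHG8 lies, had 79.1, 53.7 and 60.5 against 48.5 and 40.7 FPKM, also without overlap (log2 difference 0.51, limma adjusted p = 0.479).

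The other 5 of these entries had overlapping groups. LOC110255511 beside ZBTB37, the place of human GAS5, had 69.8, 30.5 and 66.4 FPKM in large and 27.9 and 61.7 FPKM in small follicles, so that large follicle replicate 2 and small follicle replicate 1 stood below the other 3. LOC100627892 beside SLC3A2, the place of SNHG1, had the same shape, with 25.2, 6.07 and 16.7 against 6.17 and 18.9 FPKM. LOC100739791 beside CCM2 (SNHG15) had it too, with 23.0, 8.42 and 21.3 against 8.26 and 20.9 FPKM. LOC100622481 beside TRNAU1AP (SNHG12) and LOC100621455 beside PHACTR4 (SNHG3) had log2 differences of 0.09 and −0.21.

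The genes that act with snoRNAs or carry them were measured beside these entries. Of 14 such genes, which include ribosomal proteins and the methyltransferase FBL, 7 were higher and 7 lower in large follicles, with a median log2 difference of 0.01. In limma 0 passed and 1 had an unadjusted p under 0.05, and voom called 0. With median-of-ratios scaling 11 of 14 were higher, with a median of 0.10, beside 49.1% of all genes and a median of −0.01.

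LOC100513133 lies 11256 bases from FRMD8, as the human nuclear lncRNA NEAT1 lies near that gene. It had 92.2, 34.7 and 94.1 FPKM in large and 75.5 and 175.8 FPKM in small follicles, a log2 difference of −0.77 (limma adjusted p = 0.658). Small follicle replicate 2 was the highest library and large follicle replicate 2 the lowest, so the groups overlapped. FRMD8 differed by 0.17 (limma adjusted p = 0.897).

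Of the listed genes for lncRNA processing and nuclear bodies, such as the paraspeckle proteins NONO and SFPQ, 15 were tested and all 15 were lower in large follicles, with a median log2 difference of −0.23, where 39.9% of all genes were higher and the median was −0.08. In limma 0 passed and 1 had an unadjusted p under 0.05, and voom called 0. With quantile normalization 14 of 15 were lower, and without small follicle replicate 2 the direction turned, with 10 of 14 higher and a median of 0.05, beside 60.4% of all genes and a median of 0.09. HNRNPU, a nuclear RNA-binding protein whose entry is itself annotated as lncRNA, is among the 15.

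Another 3 entries sit where human lncRNAs of known function lie. LOC110257452 is near CNBD2, as human NORAD is, and had 18.9, 14.6 and 37.2 FPKM in large and 20.6 and 27.9 FPKM in small follicles (log2 difference −0.13, limma adjusted p = 0.947). LOC102161978 overlaps WT1, a transcription factor of granulosa cells, on the opposite strand, and had 69.2, 31.1 and 46.6 against 27.2 and 40.3 FPKM (log2 difference 0.48, limma adjusted p = 0.713). LOC100152407 lies 2080 bases from CHD2, a chromatin remodeller, as human CHASERR does. It had 93.3, 20.9 and 74.2 FPKM in large and 18.1 and 52.8 FPKM in small follicles, with large follicle replicate 2 and small follicle replicate 1 far below the rest. Its log2 difference was 0.75 (limma adjusted p = 0.769), and 1.40 with large follicle replicate 2 left out (limma adjusted p = 0.0477). It did not pass without large follicle replicate 1 or 3. CHD2 differed by −0.20.

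Among entries with lower values in large follicles, LOC100519934 differed most. It lies on chromosome 1 from 73119758 to 73124368 on the minus strand. It had 15.6, 4.65 and 8.87 FPKM in large and 35.9 and 22.5 FPKM in small follicles. The groups did not overlap, and the 3 large follicle replicates varied widely among themselves. The log2 difference was −1.59 (SE 0.42, limma adjusted p = 0.144), and with a replicate block it was −1.60 (limma adjusted p = 0.0352). The block pairs libraries by number, a pairing the labels do not state. Large follicle replicate 3 has no partner there and does not enter the difference. The protein-coding gene nearest to LOC100519934 was LOC100521350, listed at 0 in all 5 libraries.

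LOC110256603 overlaps BMP1, a protease that trims procollagen, on the same strand, so fragments of the 2 genes cannot be told apart by strand. It had 5.56, 4.66 and 7.37 FPKM in large and 8.02 and 28.9 FPKM in small follicles. The groups did not overlap, but small follicle replicate 1 was close to large follicle replicate 3. The log2 difference was −1.28 (limma adjusted p = 0.325), and −2.14 with small follicle replicate 1 left out, which leaves 1 small library. LOC110256603 did not pass without large follicle replicate 1, 2 or 3. BMP1 had 165, 111 and 154 against 191 and 305 FPKM, also highest in small follicle replicate 2 (log2 difference −0.77, limma adjusted p = 0.317). LOC100515290 near USP53, with 8.08, 10.4 and 13.7 against 14.2 and 16.5 FPKM, also had no overlap and did not pass (log2 difference −0.50, limma adjusted p = 0.600).

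Higher values without overlap were also seen at LOC100738154 and LOC100515792. LOC100738154 overlaps CRADD, a death-domain adaptor, on the opposite strand, and had 9.20, 4.298 and 6.60 FPKM in large and 2.26 and 2.75 FPKM in small follicles (log2 difference 1.09, limma adjusted p = 0.237). Its small follicle mean was under 5 FPKM, so it is among the entries that passed through the large group. LOC100515792 starts 170 bases from PAN3, part of a poly(A)-trimming complex, and had 11.5, 8.69 and 14.0 against 5.67 and 7.12 FPKM (log2 difference 0.73, limma adjusted p = 0.381). CRADD and PAN3 differed by 0.07 and −0.04.

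The most abundant entry was LOC100624113, which overlaps HSPA1L on the opposite strand. Its levels were 462.9, 470.9 and 454.6 FPKM in large and 624.6 and 452.1 FPKM in small follicles, with a log2 difference of −0.20 (limma adjusted p = 0.868). Small follicle replicate 1 stood above the other 4, which were within a narrow range. HSPA1L, a heat shock gene, had at most 1.195 FPKM.

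LOC100521518 followed among the uncharacterized entries, with 336.6, 158.1 and 240.1 FPKM in large and 154.0 and 214.8 FPKM in small follicles (log2 difference 0.36, limma adjusted p = 0.798). Its start is 14 bases from that of CCDC51, a mitochondrial protein gene with 6.40 to 13.0 FPKM. Large follicle replicate 2 and small follicle replicate 1 were the lowest libraries for both.

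Most entries lay close to a protein-coding gene. Of the 109, 26 overlapped such a gene, 23 of them on the opposite strand, 37 lay within 2000 bases, 41 between 2000 and 50000 bases and 4 farther away, and 1 was on a scaffold without a protein-coding gene. Of the 37, 23 pointed away from their neighbour in a divergent pair, with gaps of at most 345 bases and a median of 101.

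Divergent uncharacterized entries within 2000 bases numbered 16, and 15 of them were higher in large follicles, with a median log2 difference of 0.32. Those higher include LOC106509868, LOC100737511 and LOC106507059, with small follicle means of 4.285, 4.615 and 4.55 FPKM. These passed the rule of 5 FPKM through the large group only, which favours that direction. Of all genes tested, 39.9% were higher, with a median of −0.08. In limma 0 passed and 3 had an unadjusted p under 0.05, which 10.4% of all genes did, and voom called 0. Without small follicle replicate 1 the count was 9 of 16 with a median of 0.09, beside 27.6% of all genes and a median of −0.25. Of the 18 uncharacterized entries that overlapped a gene on the opposite strand, 10 were higher, with a median of 0.08. That median was −0.07 without small follicle replicate 1 and −0.02 without large follicle replicate 1. The 10 higher entries include LOC102164588, LOC100738154 and LOC100513188, whose small follicle means were under 5 FPKM. These also passed the rule through the large group only, which favours that direction.

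Agreement in sign between entries and their neighbours varied with the kind of entry and its position, without a test of these differences. In 85 pairs both were tested, and 36 pairs, or 42.4%, had the same sign, against 54.0% of 5535 neighbouring protein-coding pairs. The latter pair each gene with the next one by start position, at any distance, so the 2 sets are not alike. All 109 entries had a median log2 difference of 0.11 and the tested neighbours −0.07. The part of these opposite leans in the same-sign shares was not tested. The share was 25 of 53, or 47.2%, for uncharacterized entries and 11 of 32, or 34.4%, for those described as proteins. Among uncharacterized entries it was 11 of 17, or 64.7%, for those across a gene on the opposite strand and 8 of 14, or 57.1%, for divergent ones within 2000 bases. Pearson's r across the 85 pairs was 0.04, as a description over pairs that share all 5 libraries. The neighbours' log2 differences ran from −1.21 to 4.42, and 1 neighbour passed, GSTA1. No entry within 2000 bases of a gene, or across it, had a neighbour that passed.

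**Figure D5:**
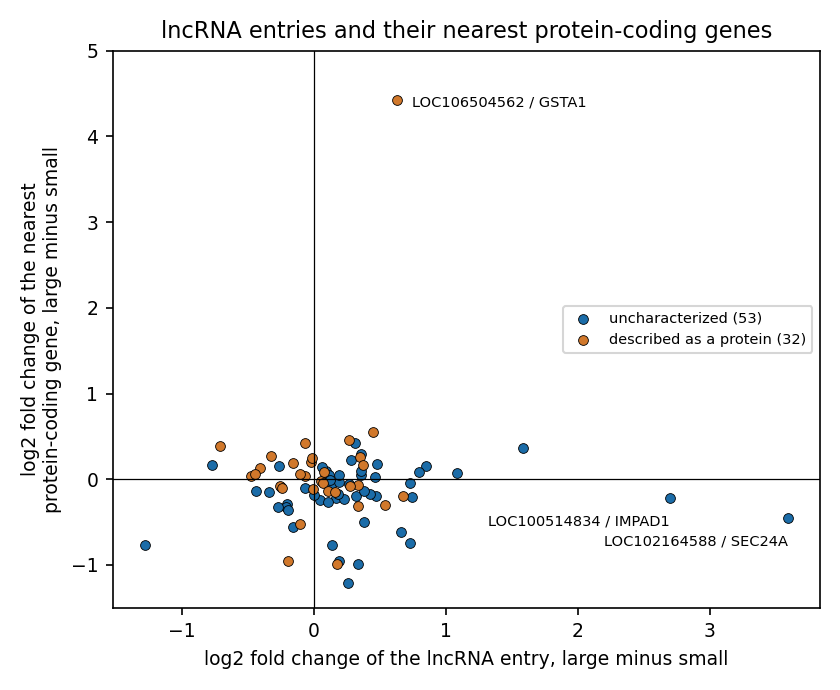
Log2 fold change of the nearest protein-coding gene against that of the lncRNA entry, large minus small, for the 85 pairs in which both were tested (53 uncharacterized, blue; 32 described as a protein, orange). GSTA1 stands at 4.42 while its entry LOC106504562 is at 0.63, and the 2 lncRNAs that passed have neighbours at −0.22 and −0.46.

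The exception was LOC106504562, described as glutathione S-transferase alpha M14, which lies 3032 bases from GSTA1, an enzyme that joins glutathione to toxic compounds and also acts in steroid metabolism. LOC106504562 had 63.5, 98.8 and 98.6 FPKM in large and 44.2 and 67.4 FPKM in small follicles, a log2 difference of 0.63 (limma adjusted p = 0.453), and small follicle replicate 2 was above large follicle replicate 1. GSTA1 had 759.5, 1431 and 1344 against 57.4 and 46.9 FPKM, a log2 difference of 4.42 (limma adjusted p = 0.000551). The genes of this family are near-identical copies, so the level of LOC106504562 is uncertain where fragments could be shared.

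The entries described as proteins were grouped by the known role of that protein, after their values were seen. Of 3 with mitochondrial roles, MARC2, which reduces N-hydroxylated compounds, had 58.5, 59.1 and 58.4 FPKM in large and 40.2 and 32.9 FPKM in small follicles. Its large libraries were nearly equal and all above the small ones (log2 difference 0.67, SE 0.20, limma adjusted p = 0.200). MARC2 overlaps MARC1 on the same strand, so their fragments cannot be told apart by strand. MARC1 differed by −0.19 (limma adjusted p = 0.863). SMIM4, which helps assemble respiratory complexes, had 24.8, 17.0 and 21.3 against 16.2 and 12.1 FPKM, with no overlap (0.54, limma adjusted p = 0.506). TIMM10, an import chaperone, had 21.8, 18.8 and 20.3 against 24.7 and 22.7 FPKM, lower in all large libraries (−0.21, limma adjusted p = 0.831).

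Translation entries were 4, and all were lower in large follicles, with a median log2 difference of −0.16; with median-of-ratios scaling 2 of the 4 were higher. In limma 0 of them passed, 0 had an unadjusted p under 0.05, and voom called 0. EIF4B, which helps unwind messenger RNA leaders, had 143.2, 188.5 and 159.4 FPKM in large and 236.4 and 159.1 FPKM in small follicles, and only small follicle replicate 1 stood above the large range. EIF3B, a core subunit of an initiation factor, had 26.5, 31.2 and 25.2 against 37.3 and 35.9 FPKM, without overlap (−0.40, limma adjusted p = 0.576). EIF2B4 and the mitochondrial ribosomal protein gene MRPS12 differed by −0.06 and −0.07.

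RNA processing and export entries were 7, of which 6 were lower, with a median of −0.20, and 0 passed in limma, 0 at an unadjusted p under 0.05, and voom called 0. HNRNPU had 95.5, 52.1 and 104.3 FPKM in large and 73.8 and 120.7 FPKM in small follicles (−0.23, limma adjusted p = 0.888), and its groups overlapped. THOC5, of the complex that hands messenger RNA to export, had 11.4, 15.9 and 14.7 against 17.0 and 16.1 FPKM, and the splicing factor PRPF38A had 19.1, 16.7 and 20.5 against 20.5 and 22.7 FPKM. Neither overlapped between groups, by narrow gaps. The spliceosome protein SNRPB, the Y RNA-binding TROVE2, the nuclear pore gene NUP58 and the splicing-related TXNL4B differed by −0.13, −0.10, −0.38 and 0.27.

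Protein turnover was represented by 5 entries, 3 higher and 2 lower. SEM1, a small proteasome subunit, had 233.9, 141.2 and 169.3 FPKM in large and 116.0 and 141.9 FPKM in small follicles (0.47, limma adjusted p = 0.598), so that large follicle replicate 2 was just below small follicle replicate 2. POMP, a proteasome assembly factor, had 59.5, 46.5 and 45.0 against 43.0 and 49.9 FPKM. The signalosome subunit COPS7B and the ubiquitin ligases ITCH and ZNRF1 differed by −0.01, −0.15 and 0.08.

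Membrane traffic entries were also 5. STX8, a fusion protein of endosomes, had 25.8, 23.6 and 17.2 FPKM in large and 16.7 and 14.8 FPKM in small follicles, without overlap (0.45, limma adjusted p = 0.596). BORCS5, which positions lysosomes, had 23.5, 17.8 and 19.1 against 14.9 and 16.4 FPKM, again without overlap (0.33, limma adjusted p = 0.713). TGOLN2 of the trans-Golgi network, the palmitoyltransferase ZDHHC4 and the lipid phosphatase MTMR6 differed by −0.47, 0.16 and −0.10.

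In sugar and amino acid metabolism all 4 entries were lower, with a median of −0.34, and 3 of 4 were with median-of-ratios scaling. SLC7A5, a transporter of large neutral amino acids, had 5.67, 17.9 and 8.78 FPKM in large and 13.4 and 20.2 FPKM in small follicles, and large follicle replicate 2 lay between the small libraries (−0.71, limma adjusted p = 0.640). ISYNA1, which makes inositol, had 131.6, 109.8 and 110.9 against 121.6 and 113.7 FPKM and differed by −0.01. B4GALT4 and POMK, which add or phosphorylate sugars, differed by −0.26 and −0.41.

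Of 6 cytoskeletal, surface and receptor entries, 3 were higher and 3 lower. GSN, which severs actin filaments, had 461.9, 241.3 and 411.9 FPKM in large and 234.1 and 334.9 FPKM in small follicles, lowest in large follicle replicate 2 and small follicle replicate 1 (0.35, limma adjusted p = 0.799). CD99, a surface glycoprotein, had 204.6, 155.3 and 152.1 against 186.8 and 174.4 FPKM, with the small values inside the large range (−0.09, limma adjusted p = 0.937). EPB41L4A had 5.82, 6.04 and 7.47 against 4.76 and 4.67 FPKM, without overlap (0.37, limma adjusted p = 0.735). IL3RA, a cytokine receptor chain, RARG, a retinoic acid receptor, and MARVELD1 differed by −0.32, −0.02 and 0.05.

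The remaining 9 entries described as proteins had small differences, apart from LOC106504562. PDS5A, a cohesin factor, had 7.06, 5.71 and 9.97 against 8.31 and 13.1 FPKM (−0.45, limma adjusted p = 0.721), and LOC106504299, described as serpin B6, had 63.1, 50.9 and 42.6 against 45.3 and 36.3 FPKM (0.34, limma adjusted p = 0.713). Groups overlapped for both. C1H18orf32, ZNF532, SWI5, TMEM159, TSSC4 and LOC100627949, the last described as a transposon polyprotein, ran from −0.16 to 0.26. SEM1 also had a separate protein-coding entry, with a mean of 1.61 FPKM.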

How the data were processed

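RNA was measured in 3 large and 2 small follicle libraries, grouped by their titles. Per the labels' protocols, TRIzol was used for extraction and the Illumina TruSeq Stranded mRNA kit for paired-end libraries. The deposited values are FPKM per gene, computed by the authors. Tools listed in the submitters' processing notes, without their roles, are the aligner HISAT2 2.0.5, the read trimmer Trimmomatic 0.38, featureCounts 1.5.0-p3, StringTie 1.3.3 and FastQC 0.11.4; the build listed is Sscrofa11.1. The sources used here do not say whether counting used the strand or how shared fragments were assigned.

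Genes that reached 1 FPKM in 2 or more libraries, 13087 in all, were tested on log2(FPKM + 1) with limma 3.58.1 in R 4.3.3 (moderated two-sided test, mean-variance trend, group as the only term), with Benjamini-Hochberg adjustment over all of them. Log2 differences are large minus small. Whole fragments were worked back from the steps of the FPKM values, within 0.001 of a fragment; 49.5% of genes gave them with the listed length and the others, 53 of the 109 lncRNA entries among them, with a shorter one. Library totals recovered this way ranged from 9523739 to 11507527 fragments. Intervals and floors cover counting error only. The script was tested on simulated data in 20 runs. Of simulated 2-fold changes 28.7% passed, of 4-fold changes 95.8% and of 8-fold changes 98.4%. Of all calls there, 8.46% were false. An entry that did not pass may therefore still differ by a small factor. The simulated noise had the same size for every gene, so these shares need not hold in the 5 libraries.

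The nearest protein-coding gene was the one with the smallest gap on the same chromosome, taken as 0 where genes overlap. Genes named were those that passed, the 10 highest means, the 8 largest differences in each direction without overlap between groups, entries with a gene symbol, their neighbours, and entries beside flanking genes of human lncRNAs, which were added after values were seen. The members and lists were chosen with earlier results of these data known. Alternatives were pseudocounts of 0.1 and 5, no filter or a mean of 5 FPKM, median-of-ratios scaling, quantile normalization, a replicate block, voom on recovered fragments, other thresholds for the lncRNA entries, and each library left out; leaving out large follicle replicate 2 and small follicle replicate 1 together was chosen after seeing the data. No 2 libraries of a group agreed within sampling noise (chi-square per degree of freedom 28.5 to 51.9), so each counted as 1 sample. A neighbouring gene of 1 entry, and that entry's values, are not reported here.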

Additional observations from a re-analysis of the deposited data

How the results depend on the processing

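LOC102164588 and LOC100514834 passed in limma in all 28 values recomputed under the alternatives, with adjusted p between 4.3e-16 and 0.028, the highest with no filter. The log2 difference of LOC102164588 ran from 1.82 to 5.91 and that of LOC100514834 from 1.97 to 2.99. Their count of 2 became 5 with large follicle replicate 2 left out, 8 when small follicle replicate 1 was also left out, 4 with entries of at least 2 FPKM, 1 with at least 10 FPKM and 0 with at least 5 FPKM in both groups, where fewer entries are counted; with each library left out it ranged from 2 to 5. Leaving out libraries added LOC100152407, LOC100512700, LOC100525590, LOC100627868, LOC100738154, LOC110256603 and SLC7A5. The median log2 difference of the 109 entries ranged from −0.10 to 0.27 with each library left out.

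Over all genes tested, 128 passed with 54.7% higher in large follicles. That count was 32 with no filter, 41 with a mean of at least 5 FPKM (75.6% higher), 70 with voom, 201 with quantile normalization, 210 with median-of-ratios scaling and 628 when the same pair of libraries was left out (40.4% higher). With each library left out it ranged from 29 to 284. For large follicle replicates 1, 2 and 3 it was 29 (79.3% higher), 284 and 207, and for small follicle replicates 1 and 2 it was 74 and 61 (the last 77.0% higher). The cause was not tested.

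With a replicate block 3 entries and 157 genes passed and the median was 0.08. Large follicle replicate 3 does not enter the difference in that fit, because no small library has its number. The labels do not say whether libraries with the same number are paired. Deviations from the group means correlated at 0.0 for replicate 1 and −0.45 for replicate 2 across the groups. With 2 small libraries, their deviations are exact opposites, so these correlations cannot decide the pairing.

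Of 1498 values of the other 107 entries, 1458 stayed within 1 residual SD without passing, 29 moved further and 11 passed; 125, from 51 entries, had the other sign, the largest 0.52 in size. Depth limits LOC102164588 in small follicles, at 0 and 2 fragments.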

Other observations

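Among the lncRNA entries tested below the mean of 5 FPKM, 332 in number, 2 passed in limma, where 0.978% of all genes tested did. Both lie across a protein-coding gene on the opposite strand. LOC106505733, on chromosome 13 from 98462466 to 98472491, fell in large follicles. It had 1.37, 0.876 and 1.505 FPKM in large and 5.88 and 8.63 FPKM in small follicles, without overlap, from 10 to 18 fragments in each large and 64 and 99 in the small libraries (log2 difference −1.87, SE 0.30, limma adjusted p = 0.0237). It lies across RARRES1, a retinoid-responsive membrane protein gene, which had 174, 166 and 244 FPKM in large and 929.9 ± 99.6 FPKM (SD, n = 2) in small follicles and fell by 2.27 on the log2 scale (limma adjusted p = 0.00349). The sources used here do not say whether fragments of the pair were kept apart by strand.

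LOC102164147, on chromosome X from 109516724 to 109542290, rose in large follicles, with 8.36, 5.90 and 5.88 FPKM in large and 1.68 and 1.34 FPKM in small follicles (log2 difference 1.61, SE 0.29, limma adjusted p = 0.0399). Its groups did not overlap, and large follicle replicate 1 was the highest. GPC3, the cell-surface proteoglycan gene across from it, had 14.9, 8.36 and 13.3 FPKM in large and 16.7 and 8.93 FPKM in small follicles, with overlapping groups (log2 difference −0.04, limma adjusted p = 0.983).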
